A study of Homo sapiens with 2 samples.

Results

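NEAT1 is the long noncoding RNA around which paraspeckles are built. Its gene body held 15 of the 2960 deletion sites listed for SF3A1 crosslinking and immunoprecipitation in C4-2B prostate cancer cells. The members are all listed sites between positions 65422798 and 65445540 of chromosome 11 (hg38), the 22743 nt RefSeq body of NEAT1. The gene was selected on its number of listed sites, with their positions and tag counts known, so these are given as a description, with no test.

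SF3A1 is a subunit of the U2 small nuclear ribonucleoprotein (snRNP), which recognises the branch site of introns. It was immunoprecipitated with 2 µg of anti-SF3A1 antibody from C4-2B cells, a prostate cancer epithelial line of the LNCaP lineage prepared here for CRISPR interference, harvested 48 h after seeding and crosslinked at 254 nm with 400 mJ/cm2. The labels name 2 libraries of this 1 group, with no knockdown, drug or other treatment among them, and no input or mock library entered the analysis. The deposited list pools both libraries, so no value below has a spread between replicates. Of 7 prostate luminal genes used to check the labelled line, 5 held a site, among them KLK3, which encodes prostate-specific antigen, with 4.

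NEAT1 is made in 2 isoforms from one start. The short isoform ends early at a polyadenylation site. The long isoform reads through that site, is cut at its far end by RNase P, and carries the middle domains that hold paraspeckles together. Both are known as largely unspliced RNAs. The RefSeq table gives the gene body and no transcript ends, so the part shared by both isoforms was taken as the first 3700 nt, the textbook length of the short isoform rounded, and the rest of the long isoform as the other 19043 nt.

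The shared part held 9 of the 15 sites and the rest of the long isoform 6. The shared part is 16.3% of the gene body. Site density was 2.43 per kb in the shared part and 0.315 per kb in the rest, a ratio of 7.72. All 15 sites lay on the plus strand. No site lay between 3245 and 4851 nt from the 5′ end, so any isoform end inside this stretch gives the same 9 and 6. Tags over a site in the shared part can come from either isoform, so more contacts per molecule and more molecules cannot be told apart there.

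**Figure D1:**
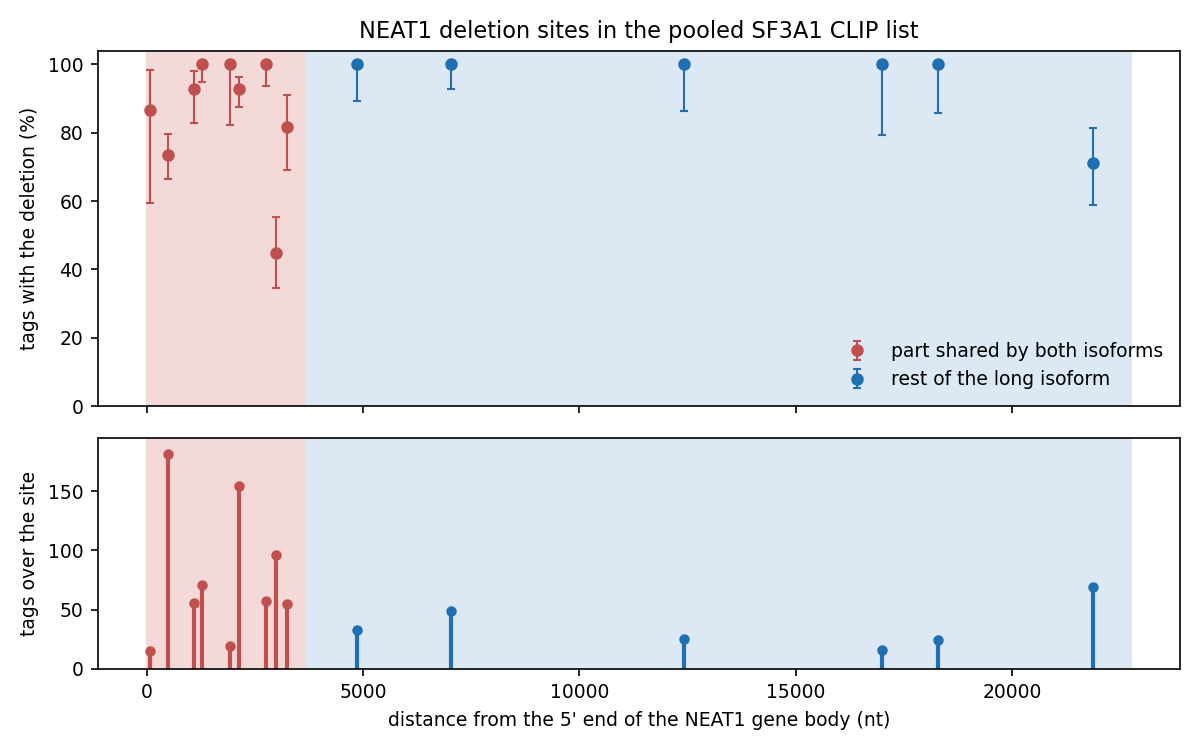
Deleted share with its exact 95% interval (upper panel, percent of tags) and tags over the site (lower panel) at each of the 15 NEAT1 sites, against the distance from the 5′ end of the gene body in nt; red marks the part shared by both isoforms and blue the rest of the long isoform. The 9 red sites crowd into the first 3245 nt, and 5 of the 6 blue sites have the deletion in every tag.

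Each site has a count of tags covering the base and a count of those lacking it. A reverse transcriptase can skip a base that carries a crosslinked remnant of protein. The share given is that of tags with the deletion among the tags that reached across. The counts alone do not tell deletions left by crosslinking from deletions of another origin, and no input or mock library entered the analysis. Shares are given with exact Clopper-Pearson 95% intervals. These cover counting error only and treat tags as independent molecules.

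In the first 2000 nt of NEAT1 there were 5 sites. The site nearest the 5′ end, at 81 nt (position 65422878), had the deletion in 13 of 15 tags, or 86.7% (59.5 to 98.3). No site of the whole list has fewer than 13 deleted tags, so this was the lowest share that 15 tags could show. The next, at 487 nt (65423284), was the best covered in the gene, with 133 of 181 tags or 73.5% (66.4 to 79.8). It ranked at 199 of the 2960 sites by tags. The site at 1085 nt (65423882) had 52 of 56 tags, or 92.9% (82.7 to 98.0). The site at 1277 nt (65424074) had 71 of 71 and that at 1913 nt (65424710) had 19 of 19. The stretch thus held both the best covered NEAT1 site and the one with the fewest tags, 12.1 times apart in coverage.

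The remaining 4 sites of the shared part lay between 2119 and 3245 nt. At 2119 nt (65424916) 143 of 154 tags carried the deletion, the highest count of deleted tags in NEAT1, a share of 92.9% (87.6 to 96.4). At 2762 nt (65425559) all 57 tags did (93.7 to 100). Only 213 nt further on, at 2975 nt (65425772), 43 of 96 tags did, or 44.8% (34.6 to 55.3), the lowest share in the gene. The intervals of these neighbours do not overlap. The last shared site, at 3245 nt (65426042), had 45 of 55 tags, or 81.8% (69.1 to 90.9).

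The 6 sites of the rest of the long isoform were spread over 4851 to 21869 nt and were thinly covered. The deletion was in 33 of 33 tags at 4851 nt (65427648), 49 of 49 at 7036 nt (65429833) and 25 of 25 at 12420 nt (65435217). It was in 16 of 16 at 17005 nt (65439802) and 24 of 24 at 18285 nt (65441082). With so few tags the lower bounds of these shares run from 79.4% to 92.7%. The longest stretch of NEAT1 without a listed site, 5384 nt, ran from 7036 to 12420 nt.

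The last site of the long isoform had the lowest share in its part. At 21869 nt (65444666), 874 nt before the annotated 3′ end, 49 of 69 tags carried the deletion, or 71.0% (58.8 to 81.3). This interval overlaps that of the site at 17005 nt (79.4 to 100), which with 16 tags could not be listed below 81.2%. The last site had the most tags outside the shared part and was the one site there with any undeleted tag. It lay 109 nt beyond MIR612 (65444458 to 65444557), a microRNA gene annotated inside NEAT1 and the only other annotated gene that overlaps its body. MIR612 itself held no site.

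**Figure D2:**
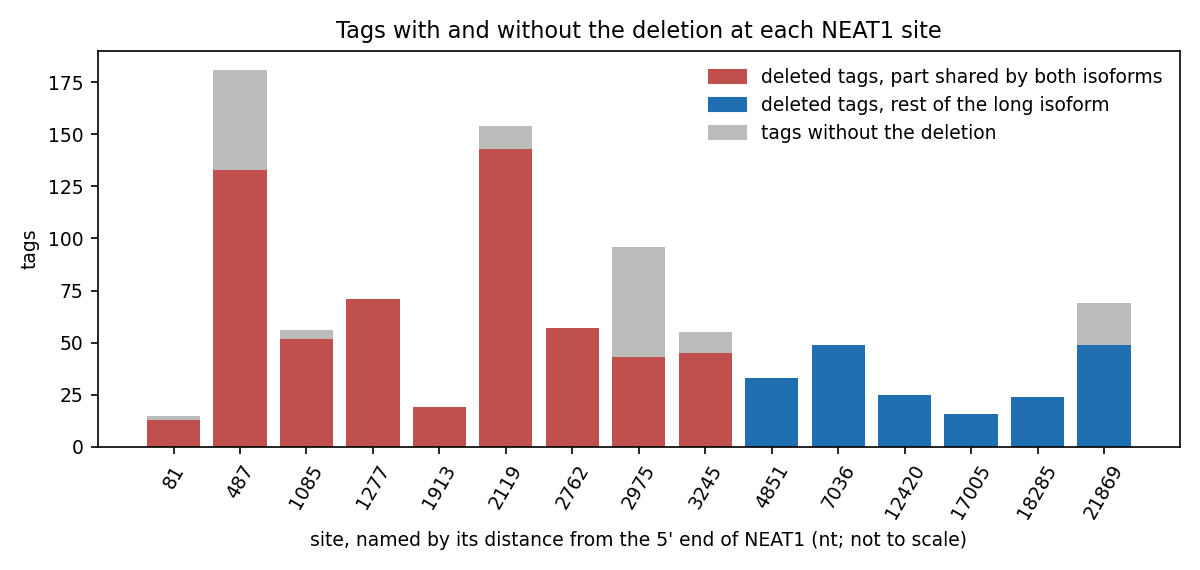
Tags with the deletion (coloured) and without it (grey) at each NEAT1 site, as stacked bars from 0, with sites in order from the 5′ end and named by their distance from it in nt. The sites at 487 and 2975 nt hold 48 and 53 grey tags, and 8 of the 15 bars have none.

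Tags without the deletion were concentrated at few sites. Over all 15 sites, 772 of 920 tags carried the deletion and 148 did not. The sites at 2975 and 487 nt held 101 of those 148, or 68.2%. By part, 128 undeleted tags lay in the shared part and 20, all from the last site, in the rest of the long isoform.

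Deleted shares averaged 85.8% ± 17.9 (SD over 9 sites) in the shared part and 95.2% ± 11.8 (SD over 6 sites) in the rest, a difference smaller than either SD. Summed over sites, the share was 81.8% of 704 tags (78.8 to 84.6) in the shared part and 90.7% of 216 tags (86.1 to 94.3) in the rest. Without the site of lowest share, at 2975 nt, the shared part came to 87.7% of 608 tags (84.8 to 90.2), and without the best covered site, at 487 nt, to 84.7% of 523 tags (81.3 to 87.7). Without the site at 21869 nt, both its lowest in share and its best covered, the rest came to 100% of 147 tags (97.5 to 100). The deletion was complete at 3 of 9 shared sites (33.3%) and at 5 of 6 others (83.3%), small numbers of sites in both parts. Sites are positions on 1 RNA in 1 pool, not replicates, so no test between the parts was made.

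Coverage moved with these shares. The shared sites had a median of 57 tags (15 to 181) and the others 29 (16 to 69), against a median of 54 over the whole list. Above that median lay 7 of 9 shared sites and 1 of 6 others. The 5 sites with a share under 90% had a median of 69 tags and the 8 complete sites 29. The part of coverage in the difference between the isoform parts was not tested.

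The deletion was complete at 8 of 15 NEAT1 sites (53.3%) beside 75.8% of all sites. A share under 90% was found at 5 of 15 NEAT1 sites (33.3%) beside 7.5% of all sites. Of the 5 NEAT1 sites, 4 lay in the shared part. In the bodies of other long noncoding genes 39 of 285 sites (13.7%) had a share under 90%, 15 of them in MALAT1, which has 17 sites. The deletion was complete at 206 of these 285 (72.3%). Under 100 tags the counts were 4 of 13 NEAT1 sites (30.8%) beside 5.59% of all such sites, and with 100 tags or more 1 of 2 beside 13.8%. NEAT1 was chosen with these shares known, so the counts are a description.

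**Figure D3:**
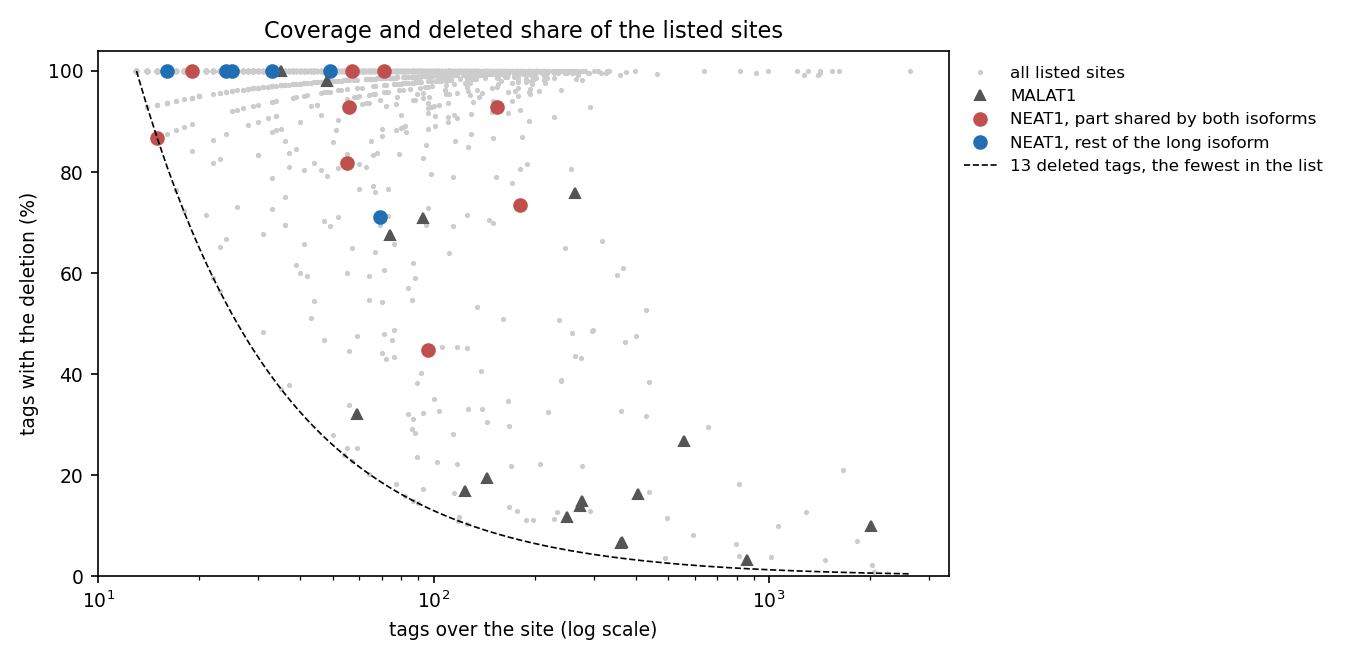
Tags over each site (log scale) against the percent of tags with the deletion, for all 2960 listed sites (grey), MALAT1 (triangles) and the NEAT1 sites of the shared part (red) and the rest (blue); the dashed line marks 13 deleted tags, the fewest in the list. The lowest NEAT1 share is 44.8%, while MALAT1 sites reach 3.25%.

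Few genes held as many sites. At least 15 sites were found in 0.00848% of 58956 nuclear genes, which comes to 5 genes. The threshold of 15 is the count of NEAT1 itself, and the gene was selected on that count. This share and the ranks below are therefore a description. At least 1 site was found in 3.87% of nuclear genes and in 1.19% of long noncoding genes. Among the 28 nuclear genes with 5 or more sites NEAT1 ranked at 5 by number of sites and at 3 by density, with 0.660 per kb. Counted from the lowest, it ranked at 5 by mean deleted share, with 89.6% ± 16.0 (SD over 15 sites). Above it by density stood MALAT1, a nuclear speckle RNA, at 1.94 per kb, and TALAM1, its annotated antisense transcript. All 16 TALAM1 sites are plus-strand sites counted in MALAT1 too. Without TALAM1, 4 genes had at least 15 sites, and NEAT1 ranked at 4 by number, 2 by density and 4 by mean share among 27 genes. The densities nearest to that of NEAT1, by log ratio, were those of HNRNPU at 0.351 per kb, SRRM2 at 0.266 and MALAT1. HNRNPU encodes a nuclear matrix hnRNP protein and SRRM2 a speckle scaffold protein. Among the mean shares nearest to it were 92.2% in the noncoding PVT1 and 86.5% in IMMP2L, a mitochondrial peptidase gene. RNA abundance was not measured, so these densities are not per molecule.

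The sites of NEAT1 lay mostly near the 5′ end, and those of MALAT1 and MIR99AHG mostly further along. NEAT1 had 11 of 15 sites in the 5′ 50% of its body, at a median of 13.1% of its length. MALAT1 had 4 of 17, at a median of 67.9%. MIR99AHG, a spliced microRNA host RNA with 25 sites, had 4 in the 5′ 50%, at a median of 60.1%. The range in NEAT1 ran from 0.356% to 96.2% of the body, in MALAT1 from 15.7% to 94.4% and in MIR99AHG from 35.9% to 89.5%. Tags over the sites had a median of 55 in NEAT1, 264 in MALAT1 and 76 in MIR99AHG, and the summed deleted shares were 83.9% (81.4 to 86.2), 17.2% (16.3 to 18.2) and 53.4% (51.8 to 55.0). The MIR99AHG value rests on 1 site, with 128 of 1833 tags deleted: the other 24 sites came to 95.1% of 2042 tags (94.0 to 96.0), above NEAT1. The mean share over sites was likewise higher in MIR99AHG, at 94.3% ± 19.5 (SD over 25 sites), than the 89.6% of NEAT1, a difference smaller than either SD.

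**Figure D4:**
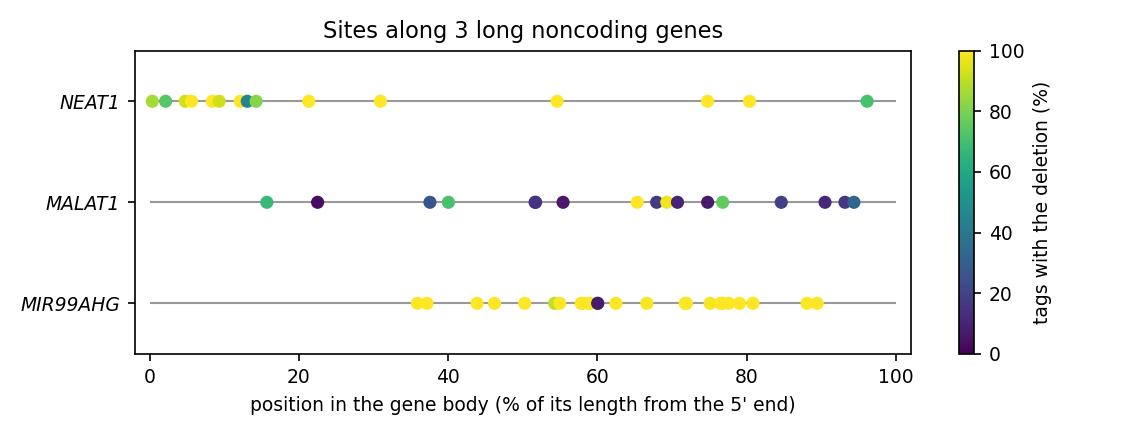
Sites along NEAT1, MALAT1 and MIR99AHG as points at their position in the gene body, in percent of its length from the 5′ end, coloured by the percent of tags with the deletion. The median NEAT1 site lies at 13.1% of the body, while the first site of MIR99AHG lies at 35.9%.

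Around NEAT1 the list was nearly empty up to MALAT1. Within 100 kb on either side there were 33 sites: 15 in NEAT1, 17 in MALAT1 and 1 in no annotated gene. This last site, at 65415204, lay 7594 nt before the NEAT1 start on the same strand, with 50 of 50 tags deleted. Downstream, the nearest site was the first of MALAT1, 53576 nt past the NEAT1 end. The protein-coding neighbour FRMD8, 9273 nt upstream, held none, nor did the pseudogene FAUP4 between NEAT1 and MALAT1. Most genes of the genome held none: at least 1 site was found in 3.87% of nuclear genes and in 10.1% of protein-coding genes.

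The index in each site's name rose with position along the plus strand of chromosome 11. The labels do not explain it. If it numbers every position with a deletion before the FDR filter, NEAT1 had 23 such positions between its first and last listed site, of which 15 (65.2%) were listed, with 9 of 11 in the shared part and 6 of 10 in the rest. On the same reading MALAT1 had 17 of 47 (36.2%), and the whole list at most 33.8%.

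Paraspeckles form when proteins bind NEAT1 while it is being made. In a list of 35 paraspeckle protein genes, 7 (20%) held at least 1 site, beside 10.1% of 19866 protein-coding genes. The latter are all annotated genes, expressed in C4-2B cells or not. RNA abundance was not measured, and its part in this difference was not tested. The median length was 27247 nt in the list and 24469 nt over all protein-coding genes. Of 9 genes for core proteins 4 had a site. NONO, one of the DBHS proteins that coat NEAT1, had 37 of 46 tags deleted at its site, or 80.4% (66.1 to 90.6), the one share under 90% among these genes. Its partner PSPC1 had 35 of 35, and DAZAP1, an RNA-binding protein gene, 105 of 105 and 121 of 121 at its 2 sites. SFPQ, the third DBHS protein, held none, as did RBM14 and HNRNPK.

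None of the 3 genes for subunits of the 3′ end processing factor that favours the short isoform, CPSF6, CPSF7 and NUDT21, held a site. Of the other 23 genes 3 did. At least 1 site was found in 10.1% of all protein-coding genes, so these small counts are not read as a result about the genes. UBAP2L had 282 of 282 and 39 of 39 tags deleted, the nuclear matrix protein gene MATR3 96 of 96 and the zinc finger gene ZNF24 127 of 127. The list of sites holds only positions past the authors' filter, so a gene with none may still have been covered. A gene strand was known for 8 of the 9 sites, and all 8 lay on it, beside 96.6% of 1944 sites in protein-coding genes that overlap no other gene.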

How the data were processed

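Crosslinking and immunoprecipitation of SF3A1 was sequenced in 2 libraries of C4-2B cells. The authors deposited 1 list of single-base deletion sites, which its name describes as pooled, from unique tags, called by crosslink-induced mutation site analysis and kept below an FDR of 10 percent. For each site they deposited a count of deleted tags, used as it stood, and a name, with no score of its own, that gives the tags over the site. Build hg38 and the tools UMI-tools, SAMtools, cutadapt and BWA 0.7.17 stand in the submitters' processing notes, with no settings. Depth per library is unknown. Tags over all sites summed to 246057.

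Sites on either strand were placed in 58993 gene bodies of the RefSeq table of GRCh38.p14, whose primary chromosomes share hg38 coordinates. Positions are 1-based, and distances run from the 5′ end. A gene's strand was taken from the RefSeq promoter table. NEAT1, its comparisons and the gene lists were chosen with earlier results of these data known. Named genes were NEAT1, genes overlapping it, MALAT1, MIR99AHG, paraspeckle genes with a site, and, among genes with at least 5 sites, the 3 nearest in density and the 3 nearest in mean share; some genes that this rule picks are not reported here. TALAM1, the neighbours of NEAT1 and the paraspeckle genes named without a site were added after their values were seen. Site assignment and merging were tested on simulated data. No significance test was used, since 1 pool has no replicates. Alternatives covered the isoform boundary, strand, deleted tags, merging and the share threshold; leaving out TALAM1 or the best covered MIR99AHG site was added after the data had been seen. Base composition at the sites was not analysed here. Computations used scipy 1.17.1, pandas 2.3.3 and numpy 2.4.6 under Python 3.11.15.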

Additional observations from a re-analysis of the deposited data

How the results depend on the processing

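Some alternatives could not change the counts of 9 shared sites and 6 others or the mean shares. These were a boundary at 3500 or 4000 nt, the strand that holds most sites and merging within 50 nt. No site lay between 3245 and 4851 nt, all lay on the plus strand and the smallest gap was 192 nt. The density ratio ran from 7.03 to 8.25 with the boundary. Keeping only sites above the list's median of 50 deleted tags, 5 shared sites and 0 others were left, so no density ratio could be formed. Among sites with a share under 0.9, 4 and 1 were left, the density ratio was 20.6, and the mean share of the rest was then that of 1 site, 71.0%. With the threshold on the share at 0.8 instead, 3 NEAT1 sites were below it (5.71% of all sites), and at 0.95, 7 (10.3%). Limiting to sites under 100 tags, chosen after seeing the data, left 4 of the 5 partial sites and a mean of 86.6% in the shared part. Paraspeckle genes with a site numbered 4 above the median of deleted tags and 1 with a share under 0.9. The share of all protein-coding genes under these settings is not given. These counts can therefore not be set against the 10.1% of the full list. No paired analysis was possible because the list pools both libraries, and for the same reason no library could be left out. Reading the deleted base and nearby motifs was planned and not run here. At 13 deleted tags per listed site, sites with few tags can show only high shares: the limit is 81.2% at 16 tags and 7.18% at 181.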
